A study of Mus musculus with 8 samples.

Results

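The 10 genes described here encode the ErbB receptors *Egfr*, *Erbb2* and *Erbb3*, the EGF-family ligands *Areg* and *Ereg*, and the feedback inhibitors *Errfi1*, *Dusp6*, *Spry2*, *Spry4* and *Spred1*. They were chosen by name from the 53801 genes of the count table, and 9 of them were found by their symbol. The deposited symbol column gives Mcub for the Ensembl gene of amphiregulin (ENSMUSG00000029378), so *Areg* was taken by its Ensembl identifier. The RNA comes from Lgr5-GFP+ intestinal crypt cells sorted from 8 mice, the cells that carry the stem cell receptor Lgr5, to ask what loss of the histone methyltransferase Mll1 changes in cells with constantly active β-catenin. 4 mice were labelled beta-cateninGOF; Mll1-/- (knockout) and 4 were labelled beta-cateninGOF; Mll1+/- (control). All 8 carried the beta-cateninGOF allele, a stabilised β-catenin, together with the Lgr5-EGFP-IRES-CreERT2 allele, which limits recombination to Lgr5+ cells and their progeny. The paper reports recombination in only part of the crypts, with non-recombined crypts beside mutant ones. Cells were sorted by Lgr5-GFP and not by a mark of recombination, so the share of recombined cells in each library is not known. Tamoxifen at 50 mg/kg was injected on 3 consecutive days into mice of 4 to 6 weeks, and cells were collected 10 days after induction. No library without beta-cateninGOF was analysed here, and each library comes from a different mouse.

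ErbB receptors are receptor tyrosine kinases that pair on the cell surface when an EGF-family ligand binds, and pass the signal through Ras, Raf and Mek to the kinase Erk. Active Erk switches on transcription of its own brakes, among them the Sprouty and Spred proteins, the phosphatase Dusp6 and the receptor inhibitor Errfi1, so that the RNA of these genes is widely used as a readout of the pathway. In the intestinal crypt, EGF-family ligands from Paneth cells and the surrounding mesenchyme drive division of the stem cells, and EGF is a standard ingredient of intestinal organoid medium.

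The libraries held 14468751 to 16847793 counts on genes, and the unit of level is CPM, in which counts are scaled to library size with TMM. *Kmt2a*, which encodes Mll1, was not lower in the libraries labelled Mll1-/- (63.5 ± 10.7 against 53.8 ± 7.45 CPM, SD, n = 4 each). These counts are per whole gene and do not separate any deleted exons, so they do not check the deletion, and each library goes by its label here. J_7135, labelled Mll1-/-, stood apart: its Spearman correlation over genes reached at most 0.909 with any other library, while each of the other libraries reached at least 0.947 with 1 of the others. In J_7135, 75 genes that stood at a median of at least 5 CPM in the other libraries had at most 3 counts, against 2 to 10 such genes in each of the other libraries. The epithelial markers summed to 2734 to 3009 CPM in the libraries labelled Mll1+/- and 3444 to 4149 CPM in those labelled Mll1-/-, and *Lgr5* stood at 271 ± 41.0 and 261 ± 19.9 CPM. The stem cell markers summed to 22598 to 26985 and 10465 to 17096 CPM, most of it from *Olfm4*. The 7 immune markers summed to 92.7 to 227 and 117 to 229 CPM, nearly all of it from *Cd74*, the invariant chain of MHC class II (160 ± 60.5 and 172 ± 48.4 CPM), while *Ptprc*, the defining marker of blood cells, had at most 16 counts and *Lyz2* of macrophages at most 74. Of the 7 stromal markers, *Col1a1*, *Col1a2*, *Col3a1*, *Dcn* and *Pdgfra* had at most 13, 25, 10, 22 and 2 counts. *Pecam1* reached 106 counts. *Vim* reached 1958 counts, with 3.24 ± 2.19 CPM in the libraries labelled Mll1+/- and 72.2 ± 33.5 CPM in those labelled Mll1-/-.

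Per length of exon, *Erbb3* was the most abundant of the 10 genes, with 17.6 ± 4.07 CPM per kilobase over the 8 libraries (SD). *Areg* followed at 14.2 ± 4.47, *Errfi1* at 9.18 ± 4.93, *Erbb2* at 6.03 ± 1.96, *Spry2* at 5.36 ± 1.19 and *Spred1* at 4.69 ± 1.52 CPM per kilobase. *Dusp6* stood at 2.96 ± 2.05, *Egfr* at 2.02 ± 0.444, *Ereg* at 0.879 ± 0.802 and *Spry4* at 0.0824 ± 0.146 CPM per kilobase. The ranges of neighbours in this order overlapped for every pair, so the exact rank of neighbours is not set by these libraries. Within each family the order was clear, since the ranges did not overlap: *Erbb3* (lowest library 11.7 CPM per kilobase) lay above *Erbb2* (highest 10.2) and *Egfr* (highest 2.50), *Areg* (lowest 6.01) above *Ereg* (highest 2.58), and *Spry2* (lowest 3.38) above *Spry4* (highest 0.430). The ErbB RNA of these cells was thus mostly *Erbb3*, the receptor that binds neuregulins and has little kinase activity of its own.

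**Figure D1:**
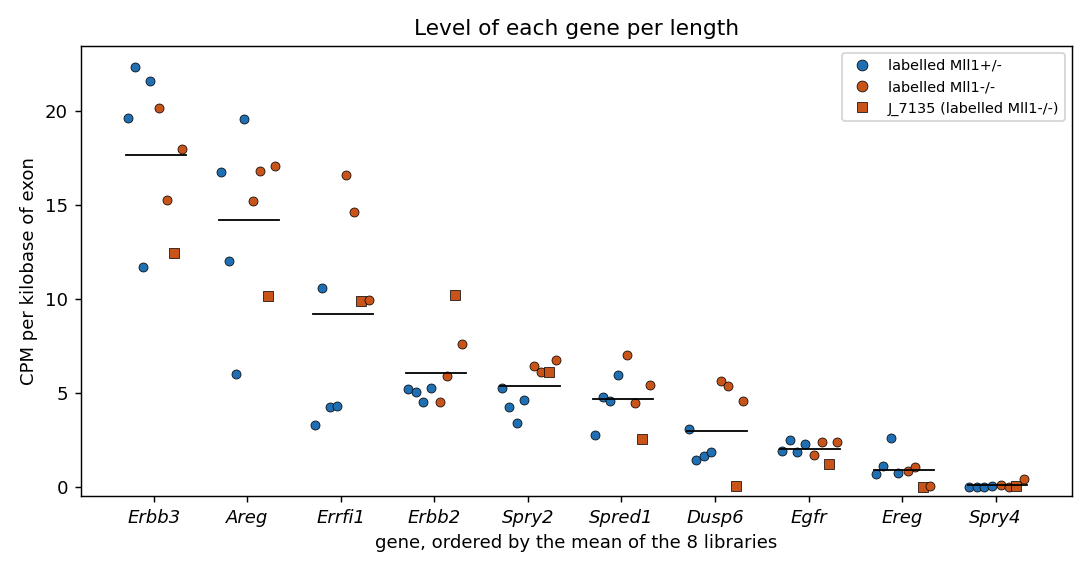
Level of each of the 10 genes in CPM per kilobase of exon (vertical axis) in the 8 libraries, ordered by the mean of the 8 libraries (line). Blue points are the libraries labelled Mll1+/-, orange points those labelled Mll1-/-, and the square is J_7135. *Erbb3* and *Areg* lead with means of 17.6 and 14.2, and *Spry4* is near 0 in every library.

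RefSeq promoters (build GRCm38.p6) were matched to 7 of the 10 genes, all but *Erbb3*, *Ereg* and *Spry4*, with 2 start sites for *Errfi1*. The 250 bases before the start of *Areg*, *Errfi1* (the downstream start site), *Dusp6* and *Spry2* are shown, 5′ to 3′ on the strand of the gene, because *Areg* and *Errfi1* share a motif that few promoters hold, while *Errfi1*, *Dusp6* and *Spry2* are the feedback genes of the 10 with the largest fold changes among those tested. Capitals mark the cAMP response element TGACGTCA and the TATA box TATAAA.
Areg, chr5:91139349-91139598, plus strand: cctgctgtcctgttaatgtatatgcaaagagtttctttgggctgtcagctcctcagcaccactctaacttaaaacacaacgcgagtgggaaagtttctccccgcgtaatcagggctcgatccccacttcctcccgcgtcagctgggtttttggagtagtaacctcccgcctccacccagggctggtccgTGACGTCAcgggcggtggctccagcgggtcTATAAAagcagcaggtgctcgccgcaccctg
Errfi1, chr4:150854820-150855069, plus strand: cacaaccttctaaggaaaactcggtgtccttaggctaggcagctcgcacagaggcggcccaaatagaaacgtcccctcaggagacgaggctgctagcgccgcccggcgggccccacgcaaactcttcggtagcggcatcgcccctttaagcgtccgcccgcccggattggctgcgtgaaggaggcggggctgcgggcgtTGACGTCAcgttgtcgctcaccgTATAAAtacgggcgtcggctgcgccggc
Dusp6, chr10:99262981-99263230, plus strand: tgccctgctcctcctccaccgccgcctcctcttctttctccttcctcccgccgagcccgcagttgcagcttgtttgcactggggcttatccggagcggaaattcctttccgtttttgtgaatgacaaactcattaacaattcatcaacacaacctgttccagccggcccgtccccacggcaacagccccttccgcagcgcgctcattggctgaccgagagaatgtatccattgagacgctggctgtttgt
Spry2, chr14:105896820-105897069, minus strand: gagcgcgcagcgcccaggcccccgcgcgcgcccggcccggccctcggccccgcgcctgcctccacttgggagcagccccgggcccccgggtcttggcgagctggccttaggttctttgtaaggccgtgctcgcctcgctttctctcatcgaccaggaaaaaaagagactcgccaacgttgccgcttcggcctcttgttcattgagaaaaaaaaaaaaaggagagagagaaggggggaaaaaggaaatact
In *Areg* the response element began 61 bases and the TATA box 31 bases before the start, and in *Errfi1* they began 51 and 28 bases before it. Of the 32851 mouse promoter windows of the same length, 1.55% held TGACGTCA and 12.4% held TATAAA on either strand. The other motifs searched on both strands were CCGGAA (a longer form of the ETS core GGAA, 3952 of these windows), CTTTGA (a TCF core, 13.8%) and TGANTCA (AP-1, 6.75%). CCGGAA matched once, in the *Egfr* window on the other strand, CTTTGA matched once, before the upstream start of *Errfi1*, and TGANTCA matched in none of the 8 windows. No 2 matches overlapped. The windows of *Dusp6* and *Spry2* held none of the motifs searched, which says nothing of shorter forms or of other sequence near the genes. GGAA alone was not among the motifs searched and is present in both windows. The bases that follow both *Errfi1* starts and the *Spred1* start were not found as one run in a GENCODE transcript of the gene, so these starts, and the distances from the *Errfi1* start, rest on RefSeq alone.

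Of the 10 genes, 9 passed the filter on low counts and were tested with edgeR's quasi-likelihood test, adjusted over all 16445 genes tested. None of the 9 had an adjusted p under 0.1, a threshold that 14 genes passed (0.0851% of all tested, 8 higher and 6 lower with TMM scaling, 3 higher and 5 lower of 8 with upper quartile scaling). DESeq2 called 1 of them, *Errfi1* (1.3% of the 40036 genes it fitted without the filter), and limma-voom called 0 (0.626%). The fold change of the libraries labelled Mll1-/- over those labelled Mll1+/- was above 1 for 6 of the 9 genes and below 1 for 3, against 50.8% of all genes above 1. The median log2 fold change was 0.12, against 0.0076 over all genes. *Errfi1* and *Spry2* had an unadjusted p under 0.05, both higher, as did 5.4% of all genes in that direction. *Spry2* was the only one of the 9 whose 2 groups of libraries did not overlap, and 3.34% of all genes did so in that direction.

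**Figure D2:**
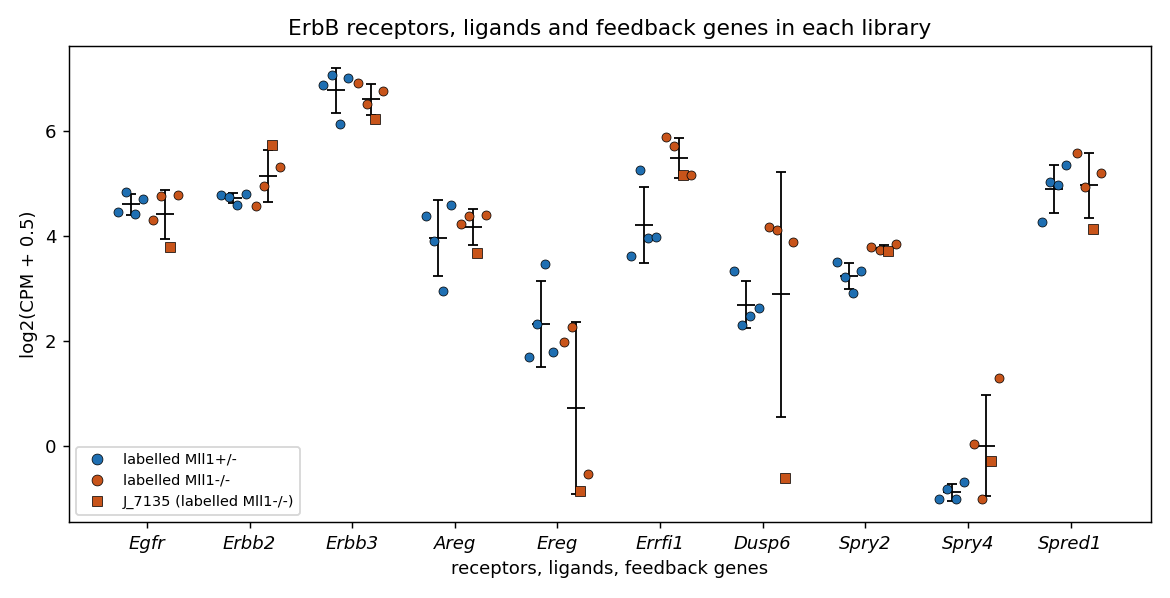
Level of each of the 10 genes as log2(CPM + 0.5) (vertical axis) in the 4 libraries labelled Mll1+/- (blue) and the 4 labelled Mll1-/- (orange, J_7135 as a square). Dashes and bars are the mean and SD of 4 libraries. *Spry2* is the gene whose groups do not overlap, and J_7135 lies far below the other libraries in *Dusp6*.

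In the sentences on single genes that follow, values in CPM are in the order J_7079, J_7100, J_7134 and J_7139 for the libraries labelled Mll1+/-, and J_7075, J_7096, J_7135 and J_7136 for those labelled Mll1-/-. J_7075, J_7079, J_7096 and J_7100 form run 1 of the mouse numbers and the other 4 libraries run 2, with 2 libraries of each label in each run. *Xist*, the RNA of the inactive X chromosome, stood at 523 and 517 CPM in the libraries of run 1 labelled Mll1+/- and at 0.649 and 2.84 CPM in those labelled Mll1-/-, so the label and the sex of the mice that *Xist* marks cannot be told apart within run 1. In run 2 it stood at 0 and 404 CPM and at 208 and 759 CPM.

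The receptors differed by less than the threshold in all 3 cases. *Egfr* (ENSMUSG00000020122, chr11:16752203-16918158), the receptor of EGF, amphiregulin and epiregulin, was at 21.7, 28.3, 20.9 and 25.6 CPM under Mll1+/- and at 19.4, 26.8, 13.5 and 27.3 CPM under Mll1-/-. The groups overlapped, with J_7135 lowest of all, at a log2 fold change of -0.15 (standard error, SE, 0.25, edgeR adjusted p = 0.896). Leaving out J_7135 turned it to 0.02 (SE 0.20). *Erbb3* (ENSMUSG00000018166, chr10:128567523-128589652) was at 118, 134, 70.4 and 130 CPM and at 121, 91.9, 75.0 and 108 CPM, so that J_7134 and J_7135, both of run 2, were lowest in their groups. Its log2 fold change was -0.19 (SE 0.22, edgeR adjusted p = 0.847), and leaving out 1 library moved it from -0.37 (J_7134) to -0.08 (J_7135), with -0.31 without J_7075 and -0.10 without J_7100.

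*Erbb2* (ENSMUSG00000062312, chr11:98412470-98437716), which has no ligand of its own and serves as the partner of the other receptors, was at 27.1, 26.3, 23.7 and 27.4 CPM and at 23.5, 30.7, 53.3 and 39.5 CPM. The libraries labelled Mll1+/- lay within 4 CPM of each other, while those labelled Mll1-/- spread from just below them to J_7135 at the top. The log2 fold change of 0.49 (SE 0.25) had an unadjusted p of 0.0751 and an adjusted p of 0.594 in edgeR. It lay in run 2, where the difference of the mean log2(CPM + 0.5) was 0.84, against 0.01 in run 1, and without J_7135 the log2 fold change was 0.26 (SE 0.20). Of the exon bases of *Erbb2*, 0.173% overlap a gene on the other strand, and *Egfr* and *Erbb3* overlap none.

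The 2 ligands lie next to each other on chromosome 5, 45952 bases apart, and are released from the cell surface by proteolysis. *Areg* (chr5:91139599-91148432), amphiregulin, was at 20.3, 14.6, 7.30 and 23.8 CPM and at 18.5, 20.4, 12.3 and 20.8 CPM. The groups overlapped almost fully, and J_7134 was the lowest library. The log2 fold change was 0.12 (SE 0.35, edgeR adjusted p = 0.949) and turned to -0.12 without J_7134.

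*Ereg* (ENSMUSG00000029377, chr5:91074622-91093646), epiregulin, was at 2.75, 4.57, 10.7 and 2.97 CPM and at 3.48, 4.34, 0.0541 and 0.197 CPM. The last 2 values are 1 and 3 counts, at or below the floor of 3 counts in those libraries. Run 1 showed no separation, with a difference in mean log2(CPM + 0.5) of 0.11, and run 2, which holds the highest library (J_7134) and the 2 lowest, held a difference of -3.32. The log2 fold change was -1.37 with an SE of 1.04 (edgeR adjusted p = 0.740), and leaving out 1 library moved it from -2.06 (J_7096) to -0.76 (J_7134, SE 1.14), with -0.96 without J_7135. It was -2.36 (SE 1.36) with the run as a block and -2.78 (SE 0.93, unadjusted p = 0.0166, edgeR adjusted p = 0.397) with *Xist* as a covariate, a fit chosen after seeing the data. Gm19610 on the other strand covers 3.42% of the *Ereg* exons, and the counting did not use strand.

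*Errfi1* (ENSMUSG00000028967, chr4:150853919-150868892) encodes Mig6, which binds the kinase domains of ErbB receptors and shuts them off. It had the largest positive fold change of the 9 tested genes, at 11.8, 38.0, 15.2 and 15.5 CPM under Mll1+/- and 59.4, 52.4, 35.4 and 35.5 CPM under Mll1-/-. Only J_7100 bridged the groups: the other 3 libraries labelled Mll1+/- lay at 15.5 CPM or below, and the 4 labelled Mll1-/- at 35.4 CPM or above. The means were 20.1 ± 12.01 and 45.7 ± 12.1 CPM (SD, n = 4 each), a log2 fold change of 1.18 (SE 0.38).

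The unadjusted p of *Errfi1* was 0.0112 and the adjusted p 0.417 (edgeR), and the exact two-sided permutation test gave p = 0.0857, where 0.0286 is the smallest that 4 against 4 libraries allow. The difference in mean log2(CPM + 0.5) was 1.37 within run 1 and 1.18 within run 2. With DESeq2's Wald test, *Errfi1* passed the threshold (log2 fold change 1.19, adjusted p = 0.0776). In a single set of simulated counts, a larger share of the calls was false with DESeq2 (41.1%) than with edgeR (11.1%). That set had 200 changed genes, gene spreads estimated by edgeR, no library apart like J_7135 and no difference between runs. DESeq2 was there given only genes past the filter, so these shares are not error rates of the fits reported here. On the same data edgeR recovered fewer of the changes set at a log2 fold change of 1 (22.7%, against 43% with DESeq2). At a log2 fold change of 2 the shares recovered were 71.7% with edgeR and 80% with DESeq2. No other gene shares exon bases with *Errfi1*. In bulk libraries such as these, a change in the share of cells that hold an RNA and a change in the RNA per cell cannot be told apart.

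*Dusp6* (ENSMUSG00000019960, chr10:99263231-99267489), the phosphatase that removes the activating phosphates from Erk in the cytoplasm, was at 9.63, 4.50, 5.13 and 5.75 CPM and at 17.6, 16.9, 0.162 and 14.4 CPM. J_7135 held 3 counts, the floor of that library, while the other 3 libraries labelled Mll1-/- held 219 to 299 counts and lay above every library labelled Mll1+/-. Over all 8 libraries the log2 fold change was 0.97 (SE 0.87, edgeR adjusted p = 0.784), and the exact permutation test gave p = 0.943. Without J_7135 the log2 fold change was 1.38 (SE 0.29), with an unadjusted p of 0.00114 and an adjusted p of 0.135, still short of the threshold that 0.262% of all genes then passed. The part of the dropout of genes in J_7135 in the low *Dusp6* value was not tested.

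*Spry2* (ENSMUSG00000022114, chr14:105891947-105896819), a Sprouty protein that dampens receptor tyrosine kinase signalling to Erk, was at 10.9, 8.86, 7.06 and 9.62 CPM and at 13.4, 12.8, 12.7 and 14.1 CPM. Every library labelled Mll1-/- lay above every library labelled Mll1+/-, J_7135 included. The mean was 9.12 ± 1.62 CPM under Mll1+/- and 13.2 ± 0.622 CPM under Mll1-/- (SD, n = 4 each). The log2 fold change of 0.54 (SE 0.22) had an unadjusted p of 0.0339 and an adjusted p of 0.511 (edgeR). The exact permutation test gave its smallest p, 0.0286, or 0.455 after adjustment over all genes. As mean log2(CPM + 0.5), the groups were 0.39 apart in run 1 and 0.66 apart in run 2.

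*Spry4* (ENSMUSG00000024427), the other Sprouty gene of the set, was near 0 throughout. It had 0, 1, 0 and 2 counts in the libraries labelled Mll1+/- and 9, 0, 6 and 30 counts in those labelled Mll1-/-, which is 3 against 45 counts in all, 30 of them from J_7136. It fell below the filter and was not tested. *Spred1* (ENSMUSG00000027351, chr2:117121374-117182279), which recruits the Ras-inactivating protein neurofibromin to the membrane, was at 18.8, 32.3, 31.0 and 40.5 CPM and at 47.7, 30.1, 17.1 and 36.7 CPM. The groups overlapped over most of their range, with a log2 fold change of 0.10 (SE 0.33, edgeR adjusted p = 0.955). The difference was 0.61 within run 1 and -0.49 within run 2, and the fold change turned to -0.14 without J_7075 and -0.07 without J_7079.

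The rest of the pathway was described with 67 further genes listed by role, of which 57 were tested. None of the 57 passed an adjusted p of 0.1 in edgeR (0.0851% of all genes), and limma-voom called 1 (0.626%). DESeq2, fitted without the count filter, called 6 of the 67, among them *Dusp10*, which edgeR did not test. Over all genes it called 521 of the 40036 it fitted (1.3%), a wider base than the 16445 of the other 2 tests. An unadjusted p under 0.05 in edgeR was reached by 7 of the 57 in the higher direction (5.4% of all genes) and 1 in the lower (3.75%). In 3 of the 57 the libraries labelled Mll1-/- all lay higher and in 1 all lower, against 3.34% and 2.94% of all genes.

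Among the other receptor and ligand genes, 5 of 10 were tested. *Erbb4*, *Epgn*, *Nrg1*, *Nrg2* and *Nrg3* fell below the filter, and no library had more than 37 counts of any of them. *Hbegf*, heparin-binding EGF, was the highest of this role per length, at 25.9 CPM per kilobase over the 8 libraries, with a log2 fold change of 0.30 (SE 0.29). *Nrg4*, a neuregulin that binds Erbb4, was the gene of the pathway with the smallest adjusted p. It was at 15.3, 7.80, 14.4 and 8.91 CPM and at 2.89, 3.36, 4.98 and 4.79 CPM, so that the groups did not overlap. The log2 fold change of -1.53 (SE 0.33) had an unadjusted p of 0.00107 and an adjusted p of 0.200 (edgeR), and 8.97% of its exon bases are shared with genes on the other strand.

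Between receptor and Erk, all genes listed were tested. The log2 fold change was above 0 for 1 of the 4 shedding genes, 2 of the 8 other ErbB inhibitors, 5 of the 11 adaptor and Ras genes and 5 of the 8 Raf, Mek and Erk kinases. The highest per length were *Adam10* among the shedding genes (16.1 CPM per kilobase, log2 fold change -0.39), a protease that releases ligands, and *Lrig1* among the ErbB inhibitors (14.6 CPM per kilobase, log2 fold change 0.21), which is also a stem cell marker. *Mapk3*, which encodes Erk1, was the only gene of these 4 roles whose groups did not overlap: it was at 42.2, 44.6, 37.4 and 34.5 CPM and at 59.5, 45.1, 58.9 and 59.7 CPM. Its log2 fold change was 0.49 (SE 0.16, edgeR adjusted p = 0.424), and J_7096 at 45.1 CPM lay just above J_7100 at 44.6 CPM.

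Among 12 other feedback genes, 7 were tested and 5 of these had a log2 fold change above 0, with a median of 0.09. *Dusp1*, a nuclear phosphatase of MAP kinases and the highest of this role per length (27.8 CPM per kilobase), was at 60.4, 53.4, 54.1 and 63.1 CPM and at 110, 61.6, 84.7 and 113 CPM. J_7096 was the only library labelled Mll1-/- that fell within the Mll1+/- range, and the log2 fold change was 0.68 (SE 0.20, unadjusted p = 0.00686, edgeR adjusted p = 0.359). *Spry3*, *Spred3*, *Dusp2*, *Dusp9* and *Dusp10* fell below the filter. *Dusp10*, a phosphatase of the stress kinases p38 and Jnk, had 0, 6, 2 and 3 counts under Mll1+/- and 57, 44, 2 and 72 counts under Mll1-/-, where J_7135 again held the lowest count of its group. *Spred2* showed the same library apart, with 9 counts in J_7135 against 192 to 324 in the other libraries labelled Mll1-/-. Without J_7135 the median of the other feedback genes was 0.71, with 9 tested. That fit added *Dusp10* (log2 fold change 4.16) and *Spry3* (1.61), which were not tested over all 8 libraries. The medians with and without J_7135 therefore cover different genes. Without J_7075 the median was -0.22.

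The Erk output genes, transcription factors and growth genes whose RNA follows Erk activity in many cells, were all tested. Of the 14, 12 had a log2 fold change above 0 (50.8% of all genes did), with a median of 0.49 against 0.0076 over all genes. The list was chosen with earlier results of these data known, so these shares are a description and not an independent test. An unadjusted p under 0.05 was reached by 5 of them, all higher (5.4% of all genes), and the groups did not overlap in *Etv4* and *Ccnd1*, both higher (3.34% of all genes). *Etv4*, an ETS transcription factor, was at 1.26, 0.703, 0.722 and 0.129 CPM and at 2.66, 3.59, 2.33 and 3.81 CPM, a log2 fold change of 2.12 (SE 0.61, edgeR adjusted p = 0.354).

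*Ccnd1*, cyclin D1, was at 34.9, 30.4, 37.6 and 23.6 CPM and at 50.2, 43.2, 54.1 and 46.8 CPM, a log2 fold change of 0.62 (SE 0.18, edgeR adjusted p = 0.365). It shares 23.4% of its exon bases with a gene on the other strand and is also a known target of β-catenin. *Fos*, the highest of this role per length (165 CPM per kilobase), had a log2 fold change of 0.28 (SE 0.15). *Etv5* (2.21), *Phlda1* (0.80) and *Ier2* (0.62), named after their values were seen, were the other genes of the role with an unadjusted p under 0.05, and *Myc* (-0.09) and *Epha2* (-0.03) had log2 fold changes below 0.

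**Figure D3:**
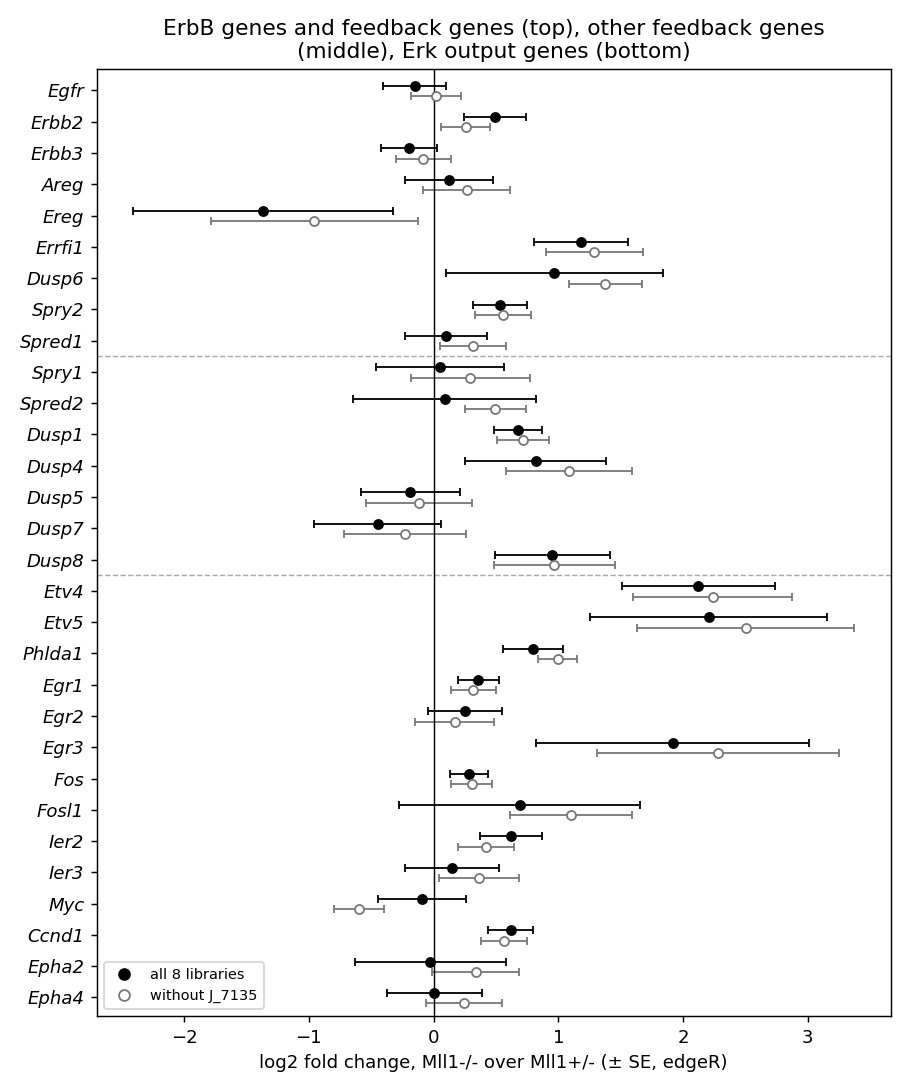
log2 fold change of the libraries labelled Mll1-/- over those labelled Mll1+/- with its SE (edgeR, horizontal axis), over all 8 libraries (filled) and without J_7135 (open), for 9 of the 10 genes (top), 7 other feedback genes (middle) and 14 Erk output genes (bottom). Most of the lower 2 blocks lie right of 0, and the *Dusp6* bar shortens from an SE of 0.87 to 0.29 without J_7135.

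Without J_7135, edgeR called 0 of the 9 genes of the set (0.262% of all genes), 3 had an unadjusted p under 0.05, all higher (4.73% of all genes), and 7 had a log2 fold change above 0. There were 2 genes whose groups did not overlap, *Dusp6* and *Spry2*, where 9.89% of all 17150 genes tested did not overlap. Of the Erk output genes, 13 of 14 then had a log2 fold change above 0 (49.9% of all genes). *Etv4*, *Etv5*, *Phlda1*, *Egr3*, *Fosl1* and *Ccnd1*, 6 of 14, lay higher in every library labelled Mll1-/- (5.34% of all genes did), and *Phlda1*, a growth-regulated gene of the pleckstrin homology family, passed the threshold with a log2 fold change of 0.99 (SE 0.16, edgeR adjusted p = 0.0667), as 0.262% of all genes then did. In *Phlda1*, 33.0% of the exon bases are shared with Gm28592 on the other strand, and *Myc* had a log2 fold change of -0.60 (SE 0.20) in the same fit.

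Genes that tissue dissociation is known to induce were listed as well. Of 12 such genes, 10 had a log2 fold change above 0 (50.8% of all genes) and 5 an unadjusted p under 0.05, all higher (5.4% of all genes), and their summed level was 980 to 1410 CPM in the libraries labelled Mll1+/- and 1333 to 1980 CPM in those labelled Mll1-/-. *Fos*, *Egr1* and *Ier2* also stand among the Erk output genes, and *Dusp1* among the other feedback genes. *Vim*, listed here among the stromal markers, was at 3.24 ± 2.19 CPM and 72.2 ± 33.5 CPM (SD, n = 4 each, edgeR adjusted p = 0.108). The 7 stromal markers together came to 6.13 to 11.95 and 50.2 to 122 CPM. Of the 8 goblet cell markers 6 had a log2 fold change above 0 (50.8% of all genes), with a median of 1.01. An unadjusted p under 0.05 was reached by 4 in the higher direction (5.4% of all genes) and 1 in the lower (3.75%). The groups did not overlap in *Muc2* and *Spdef*, both higher (3.34% of all genes). The 1 lower gene was *Zg16*, a goblet cell lectin, at 14.6 ± 15.8 and 0.890 ± 1.38 CPM. Of the 8 Paneth cell markers 6 had a log2 fold change below 0, as did 8095 of all 16445 genes. An unadjusted p under 0.05 in that direction was reached by 4 of them (3.75% of all genes). The groups did not overlap in *Defa17* and *Itln1*, both lower (2.94% of all genes). The median of the 8 was -0.87 and their sum 3106 to 4846 and 1559 to 5054 CPM. The sum of 5054 CPM, in J_7136, held 2513 CPM of *Pla2g2a*. That gene ranged from 106 to 1181 CPM under Mll1+/- and from 113 to 2513 CPM under Mll1-/-. *Mmp7*, 1 of the 2 higher Paneth markers, was at 148 ± 11.7 and 304 ± 89.7 CPM, without overlap of the groups (3.34% of all genes). The 5 tested of 8 enteroendocrine markers all had a log2 fold change below 0, and 2 an unadjusted p under 0.05 (3.75% of all genes). The groups did not overlap in 2 of them, both lower (2.94% of all genes), and the list summed to 7.54 to 55.1 and 3.81 to 9.85 CPM. *Chgb*, a granule protein of enteroendocrine cells, was at 12.1 ± 11.8 and 0.367 ± 0.333 CPM. The 6 tested of 8 enterocyte markers all had a log2 fold change below 0 as well, 5 with an unadjusted p under 0.05 (3.75% of all genes). The groups did not overlap in 3 of them, all lower (2.94% of all genes), and the list summed to 244 to 328 and 117 to 152 CPM. The part of any of these in the values of the feedback and Erk output genes was not tested.

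**Figure D4:**
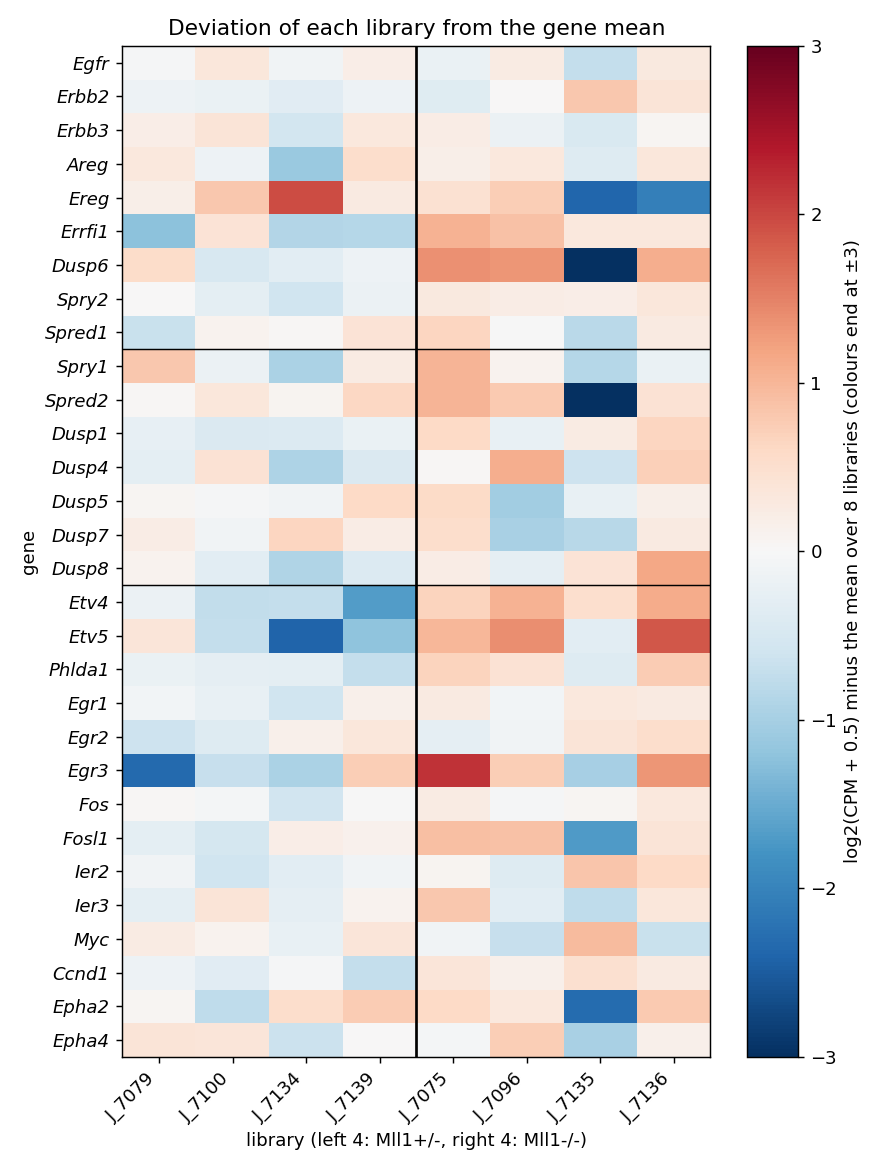
Deviation of each library (columns, the 4 labelled Mll1+/- on the left and the 4 labelled Mll1-/- on the right) from the mean of the 8 libraries, in log2(CPM + 0.5), for 9 of the 10 genes (top), 7 other feedback genes (middle) and 14 Erk output genes (bottom). Red is above and blue below the mean, and J_7135 is blue in *Ereg*, *Dusp6*, *Spred2*, *Fosl1* and *Epha2* and red in *Erbb2* and *Myc*.

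The genes most like the 3 members of the set with the largest absolute fold changes were sought by the root mean square difference in log2(CPM + 0.5) over the 8 libraries, after centring each gene. *Klf4* (0.320), a transcription factor of differentiating epithelium, and *Castor2* (0.324) were nearest to *Errfi1*, whose own SD was 0.866. *Klf4* ranged from 8.496 to 18.3 CPM in the libraries labelled Mll1+/- and from 24.7 to 39.5 CPM in those labelled Mll1-/-. *Parm1* (0.409) and *Lpcat2* (0.461) were nearest to *Dusp6* (SD 1.56), and both were also at 0.216 CPM or less in the lowest library labelled Mll1-/-. 4633401B06Rik (0.372) and *G0s2* (0.402) were nearest to *Ereg* (SD 1.47). The median over all genes of this difference was 0.905 for *Errfi1*, 1.50 for *Dusp6* and 1.43 for *Ereg*.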

How the data were processed

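Sorted Lgr5-GFP+ cells were sequenced with Smart-seq2, which amplifies cDNA and carries no molecular identifiers. Per the study's methods each tube received only a small number of sorted cells, which limits what counts near the floor can show. Per the labels and the study's methods, reads were aligned to mm10 with GSNAP and the authors deposited raw counts per gene from featureCounts 1.6.3 (Ensembl release 92, strand setting 0, mapping quality of at least 1). A second deposited table holds signal, the counts divided by a size factor of DESeq2 1.22.2, and was used for symbols and size factors only; its symbols differ from GENCODE for 588 of 25485 identifiers. Columns of the authors' own comparison were not used.

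Counts passed filterByExpr (minimum count 10, minimum total 15), were scaled with TMM and were tested two-sided with edgeR 4.0.16 (robust quasi-likelihood, genotype as the only term, Benjamini-Hochberg over 16445 genes, threshold 0.1) in R 4.3.3, after a test on simulated data. Exact permutation tests used 70 assignments and log2(CPM + 0.5). The floor, 3 counts, equals 0.162 to 0.241 CPM and covers counting error only. Named genes were the 10 members, *Kmt2a*, and of the 67 listed pathway genes those called, those whose groups did not overlap, those below the filter and the highest per length in each role; other genes were named once their values were known. Some genes under this rule are not reported here. The members and lists were chosen with earlier results of these data known. Alternatives were other scalings, filters and tests (DESeq2 1.42.0, limma 3.58.1), the run of mouse numbers as a block, each library left out, and a covariate for Xist chosen after seeing the data. Exon overlaps used the exons of the deposited count table (Ensembl release 92), with gene symbols from GENCODE release M21, and figures came from matplotlib 3.10.9.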

Additional observations from a re-analysis of the deposited data

Results flagged for a closer look

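Over 25 named genes and both groups, 4 of 50 groups of 4 libraries held 1 library whose gap to its nearest neighbour, as a share of the range of the group in log2(CPM + 0.5), exceeded Dixon's critical value, which chance exceeds in about 1 of 20 groups. *Dusp6* stood at 0.162 CPM in J_7135 among the libraries labelled Mll1-/-, with a gap of 0.940 of the range. *Mapk3* stood at 45.1 CPM in J_7096 among the libraries labelled Mll1-/-, below the other 3 (gap 0.952 of the range). *Lrig1* stood at 67.8 CPM in J_7079, the lowest of the libraries labelled Mll1+/- (gap 0.836). *Fos* stood at 256 CPM in J_7134, again the lowest of the libraries labelled Mll1+/- (gap 0.848).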

How the results depend on the processing

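Of 142 log2 fold changes of the 9 tested members under alternatives, 137 kept their direction and side of the threshold and 4 reversed: with 1 library left out, *Spred1* ranged from -0.14 (J_7075) and -0.07 (J_7079) to 0.32, *Areg* from -0.12 (J_7134) to 0.35 and *Egfr* from -0.28 to 0.021 (J_7135). *Errfi1* passed the threshold with DESeq2 (1.19), the 1 member called there. *Hbegf* ranged from -0.00068 (J_7136) to 0.44. With library totals in place of TMM, the difference in mean log2(CPM + 0.5) was 0.015 for *Erbb3* and 1.46 for *Errfi1*, whose exact permutation p was then 0.0286. Over all genes, 14 were called (8 higher, 6 lower). The number was 8 (3 higher) with upper quartile scaling, 47 (24 and 23) without a filter, 34 (15 and 19) with at least 10 counts in every library, 521 (300 and 221) with DESeq2 and 103 (56 and 47) with limma-voom. With the run as a block it was 0 (0 and 0), where 1642 had an unadjusted p under 0.05, and with the Xist covariate 1 (1 and 0). Leaving out 1 library gave 0 to 45 (0 to 22 higher, 0 to 23 lower), 45 without J_7135. Called pathway genes numbered 6 with DESeq2 (*Nrg4*, *Dusp1*, *Dusp10*, *Etv4*, *Phlda1* and *Ccnd1*), 1 with limma-voom (*Phlda1*) and 0 to 1 with 1 library left out. With 1 library left out, the median of the other feedback genes was -0.22 (J_7075) to 0.71 (J_7135), and that of the Erk output genes 0.39 to 0.49. The filter was applied anew in each of these fits, so the feedback genes tested were not always the same, as without J_7135. With the run as a block the median of the other feedback genes was -0.03. The cause of these shifts was not tested. No paired analysis was possible because the labels give the libraries mouse numbers that are not shared between the groups. Xist stood at 0 to 523 CPM in the libraries labelled Mll1+/- and 0.649 to 759 CPM in those labelled Mll1-/-. With 4 libraries a group, standard errors of 0.22 to 1.04 on the log2 scale bound what could be seen in the members.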

Other observations

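In J_7134, labelled Mll1+/-, several EGF-family ligands stood at the end of their range. *Ereg* had 133 counts there, its highest value, and *Epgn*, the ligand gene epigen, had 36 counts, against 1 count in the other 7 libraries together. *Erbb4* also had its highest count there, 37. In the same library *Areg* (7.30 CPM) and *Btc*, betacellulin (5.45 CPM), had their lowest values. *Btc* was at 22.3, 15.7, 5.45 and 16.3 CPM in J_7079, J_7100, J_7134 and J_7139, and at 34.6, 22.8, 17.9 and 23.9 CPM in J_7075, J_7096, J_7135 and J_7136. *Areg*, *Ereg*, *Epgn* and *Btc* all lie on chromosome 5.

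J_7135 lay at an extreme in either direction within the pathway. It had 2 counts of *Socs5*, an inhibitor of EGF receptor signalling, against 84 to 206 in the other libraries labelled Mll1-/-, and 0 counts of *Fosl1*, against 25 to 43. It had the highest values of *Map2k2*, the Mek2 gene (98.3 CPM), and *Myc* (200 CPM) of all 8 libraries.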
